A study of Mus musculus with 610 samples.

Results

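The genes Spi1, Csf2rb2, Gp49a and Csf1r, which are best known from myeloid cells, were followed in single cells from the mouse thymus. They were picked by name, and are 4 of the 48 assays of a single-cell quantitative PCR panel read in 610 cells, so that 2440 of the 29280 reactions belonged to them. The panel served to describe early thymic progenitors of gamma delta T cells. B6 DN2 cells (78 cells, 1 run) were live C57BL/6J thymocytes of postnatal days 7 to 10 sorted as TCRd-, Lin-, CD44+, CD25+ and cKit+. Tcrd-/- DN1d cells (86 cells, 1 run) came from B6.129P2-Tcrd tm1Mom mice of postnatal days 7 to 10, which carry a targeted T cell receptor delta gene, and were TCRd-, Lin-, CD44+, CD25-, CD24+ and cKit-. Rag1-/- cKit- cells (runs of 89, 52 and 82 cells) came from B6.129S7-Rag1 tm1Mom mice of postnatal days 0 to 2, which cannot rearrange antigen receptor genes. They were sorted as TCRd-, Lin-, CD44+, CD25- and cKit-, with no CD24 gate, so they differ from the other populations in age as well as in genotype and gate. B6 DN1d cells (runs of 72, 70 and 81 cells) were from unmodified C57BL/6J mice, again of postnatal days 7 to 10, and passed the gate used for Tcrd-/- DN1d. All populations were thus TCRd-, Lin- and CD44+, and DN2 was the cKit+ and CD25+ one.

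Spi1 encodes PU.1, a transcription factor of the ETS family that drives myeloid and B cell fates. Early thymic progenitors carry it, and T cell precursors shut it off as they commit to the T lineage. Csf2rb2 encodes the mouse beta chain of the interleukin 3 receptor, Gp49a an immunoglobulin-like receptor found on mast cells and other myeloid cells, and Csf1r the receptor through which macrophage colony-stimulating factor acts on monocytes and macrophages.

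Detection of a gene means a threshold cycle (Ct) below 24, the value at which undetected reactions stand. The level is 24 minus Ct, so that 1 unit is 1 PCR cycle and an undetected reaction is 0. Of the 2440 reactions of the 4 genes, 7.21% were detected, and 19.5% of the 610 cells had at least 1 of them. The weakest had levels of 0.17, 1.72 and 1.96, the next 4.71 and the strongest 13.32, while every reaction outside the call stood at 24 exactly. The run is the replicate. Since the labels do not say which animals gave a run, p-values here measure only run-to-run spread, part of which may be technical. No run holds more than 1 population, so run and population cannot be told apart. Gapdh, the housekeeping gene, had a mean level of 14.2 to 15.6 per run, and the mean number of assays detected per cell ran from 19.2 to 30.9 between runs. The number was 28.5 in DN2 cells, 30.9 in Tcrd-/- cells, 23.1 ± 1.40 in Rag1-/- cells and 19.8 ± 0.528 in B6 DN1d cells (SD, n = 3 runs where an SD is given). The targeted genes Rag1 and Tcrd were not analysed here. The Vg2-Jg1 junction, which Rag1 makes, was at 0% of the Rag1-/- cells that held 0 or 1 of the 4 genes. It was also at 0% of such cells in DN2, so this value does not set the Rag1-/- cells apart.

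Of the 4 assay names, 3 are RefSeq symbols and 1, Gp49a, is a RefSeq synonym of Lilr4b. Promoter windows of Csf2rb2 and Gp49a are shown because these genes were found together with Spi1 in the same cells, and PU.1 binds DNA at an ETS core, GGAA. Each window is 300 bases from RefSeq build GRCm38.p6, 250 before to 50 after the gene's start, written in the gene's own direction with GGAA, or TTCC where it lies on the other strand, in capitals. The Csf2rb2 window is chr15:78305672-78305971 on the minus strand, and the Gp49a window is chr10:51480362-51480661 on the plus strand.
Csf2rb2: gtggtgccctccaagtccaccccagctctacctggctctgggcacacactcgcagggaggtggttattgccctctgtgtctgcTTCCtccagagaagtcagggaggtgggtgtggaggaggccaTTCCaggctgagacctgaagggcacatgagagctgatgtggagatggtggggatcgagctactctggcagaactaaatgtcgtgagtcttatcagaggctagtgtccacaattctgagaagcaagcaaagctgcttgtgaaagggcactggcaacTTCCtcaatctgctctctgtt
Gp49a: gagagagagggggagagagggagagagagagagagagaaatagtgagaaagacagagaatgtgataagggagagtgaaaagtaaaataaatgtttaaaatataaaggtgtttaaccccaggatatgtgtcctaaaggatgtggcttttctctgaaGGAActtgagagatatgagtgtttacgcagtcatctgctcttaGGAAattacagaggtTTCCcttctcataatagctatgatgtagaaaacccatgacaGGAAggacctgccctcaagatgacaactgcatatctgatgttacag
The Csf2rb2 window held 3 GGAA matches, all on the strand opposite to the gene, and 1 match to the longer purine-rich form GAGGAAGT, which overlaps a GGAA match. The Gp49a window held 4 GGAA matches, 3 on the gene's strand and 1 on the other, and 0 matches to GAGGAAGT. Among 32851 RefSeq promoter windows of this length, 96.0% held GGAA on either strand, with a median of 3 matches. At least 3 matches stood in 66.3% of windows, at least 4 in 46.3%, and GAGGAAGT in 3.20%. GGAA was therefore about as frequent in both windows as in promoters at large, and a match is a run of letters, not a measured binding site. Csf2rb2 and Gp49a each have a neighbouring, closely similar gene in the mouse genome. Primer sequences are not given in the sources used here, so which copy each assay reads was not checked.

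Spi1, the transcription factor among the 4 genes, was the one found in most DN2 cells. It was detected in 63 of 78 B6 DN2 cells (80.8%, exact 95% interval 70.3% to 88.8%), and its level in those cells ran from 1.96 through a median of 8.10 to 11.25. It was detected in 3 of 86 Tcrd-/- DN1d cells (3.49%, 0.725% to 9.86%), at levels of 7.16, 7.21 and 8.22. In Rag1-/- cells it was detected in 1 of 89, 0 of 52 and 1 of 82 cells of the runs, at levels of 7.23 and 8.07. In B6 DN1d cells it was detected in 2 of 72 (2.78%), 4 of 70 (5.71%) and 10 of 81 cells (12.3%), at median levels of 7.88, 7.88 and 9.16. The DN2 run lay far above every other run, all Rag1-/- runs lay below all B6 DN1d runs, and the Tcrd-/- run lay inside the range of the B6 DN1d runs. The levels in detected cells overlapped between DN2 and B6 DN1d, where they spanned 6.03 to 10.97.

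Averaged over all cells, undetected ones at 0, the level of Spi1 was 6.49 in DN2, 0.26 in Tcrd-/-, 0.06 ± 0.05 in Rag1-/- and 0.60 ± 0.49 in B6 DN1d cells (SD, n = 3 runs). Tests were fitted over the 47 assays detected in any cell, on the logit of the share of cells detected and on the mean level per run. Spi1 was detected more often in DN2 than in B6 DN1d cells, with a logit difference of 4.06 ± 0.55 (SE; limma, adjusted p = 1.14e-06), and its mean level was 5.88 ± 0.39 cycles higher (limma, adjusted p = 0.000227). It was detected less often in Rag1-/- than in B6 DN1d cells, with a logit difference of -1.59 ± 0.39 (limma, adjusted p = 0.00133). Its mean level there differed by -0.54 ± 0.28 cycles, which did not pass (limma, adjusted p = 0.161). With the arcsine of the square root in place of the logit, the Rag1-/- detection call ended (limma, adjusted p = 0.0535).

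**Figure D1:**
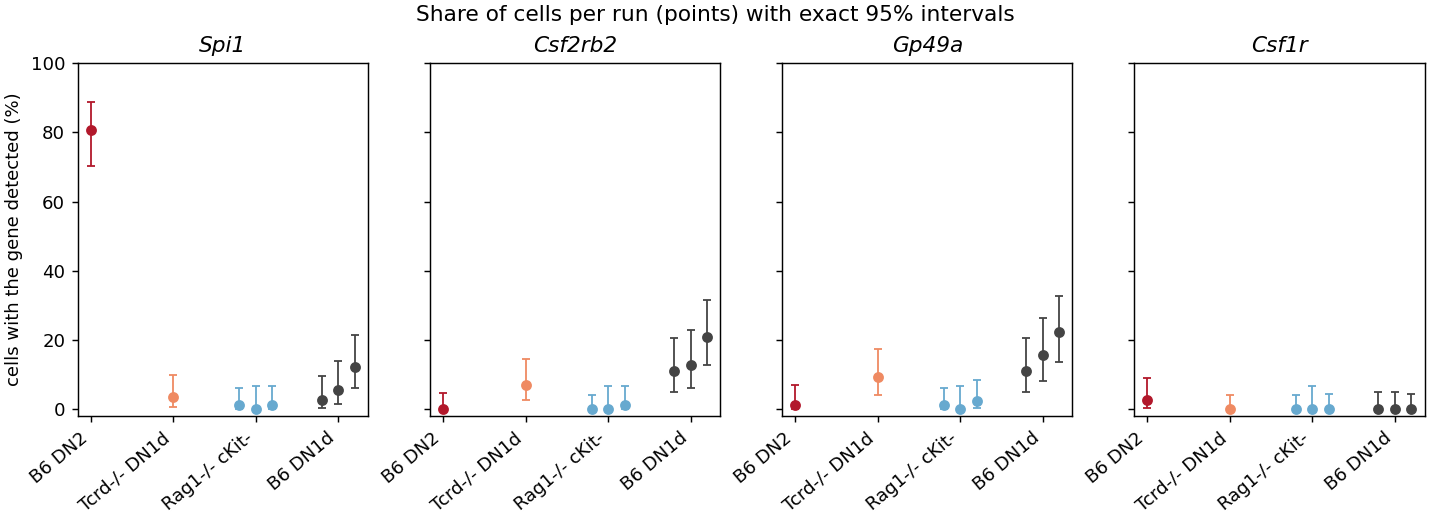
Share of cells in percent (vertical axis) with Spi1, Csf2rb2, Gp49a and Csf1r detected, 1 point per run with its exact 95% interval, for B6 DN2, Tcrd-/- DN1d, Rag1-/- cKit- and B6 DN1d. Spi1 stands at 80.8% in the DN2 run and at or below 12.3% elsewhere, while Csf2rb2 and Gp49a reach 21% and 22.2% in B6 DN1d run 3 and are at 0% and 1.28% in DN2.

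The receptor genes Csf2rb2 and Gp49a were spread over the populations in another way. Csf2rb2 was detected in 0 of 78 DN2 cells, so that a share of up to 3.85% is possible, and in 6 of 86 Tcrd-/- cells (6.98%, 2.60% to 14.6%), where its level ran from 7.93 through a median of 10.20 to 11.59. In Rag1-/- cells it was detected in 0 of 89, 0 of 52 and 1 of 82 cells, the last at a level of 8.24. In B6 DN1d cells it was detected in 8 of 72 (11.1%), 9 of 70 (12.9%) and 17 of 81 cells (21%), at median levels of 9.25, 9.07 and 9.38. Every B6 DN1d run lay above every run of the other 3 populations, with Tcrd-/- in between. One B6 DN1d cell called positive for Csf2rb2 had a level of only 0.17.

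Gp49a was also found mainly in B6 DN1d and Tcrd-/- cells. It was detected in 1 of 78 DN2 cells (1.28%, 0.0325% to 6.94%), at a level of 10.08. Of the Tcrd-/- cells, 8 of 86 were positive (9.30%, 4.10% to 17.5%), with levels from 8.78 through a median of 11.58 to 12.47. In Rag1-/- cells it was found in 1 of 89, 0 of 52 and 2 of 82 cells, at levels of 8.51, 8.23 and 9.80. The B6 DN1d runs had it in 8 of 72 (11.1%), 11 of 70 (15.7%) and 18 of 81 cells (22.2%), at median levels of 10.02, 8.66 and 9.82. Again no run of another population reached the lowest B6 DN1d run, and the Tcrd-/- run came closest. The exact intervals of the Tcrd-/- run and of the B6 DN1d runs overlapped for Spi1, Csf2rb2 and Gp49a.

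By detection, 2 of the 4 genes were called higher and 2 lower in DN2 than in B6 DN1d cells, against a background in which 66% of all tested assays were called, 44.7% higher and 21.3% lower. Csf2rb2 differed by -3.32 ± 0.53 on the logit scale (limma, adjusted p = 1.01e-05) and Gp49a by -2.31 ± 0.53 (limma, adjusted p = 0.000585). Among cells with 16 to 30 other assays detected both differences were smaller, at -2.10 for Csf2rb2, which still passed (limma, adjusted p = 0.00252), and -1.31 for Gp49a, which did not (limma, adjusted p = 0.0624). By mean level, where 57.4% of assays were called (40.4% higher, 17% lower), 1 of the 4 genes was called higher and 2 lower. Csf2rb2 was at 0 in DN2 and 1.36 ± 0.57 cycles in B6 DN1d cells, and Gp49a at 0.13 against 1.55 ± 0.57 cycles (SD, n = 3 runs). Both level calls were narrow (limma, adjusted p = 0.0494 for each). They ended when any Rag1-/- run or B6 DN1d run 2 was left out, and that of Csf2rb2 also without B6 DN1d run 1.

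The Rag1-/- comparison gave 3 of the 4 genes called lower by detection, where 59.6% of assays were called in all and 25.5% lower. The logit difference was -2.88 ± 0.38 for Csf2rb2 (limma, adjusted p = 2.38e-06) and -2.43 ± 0.38 for Gp49a (limma, adjusted p = 1.01e-05). By mean level 2 of the 4 were called lower, against 55.3% of assays called and 21.3% lower. Csf2rb2 had a mean level of 0.03 ± 0.06 cycles in Rag1-/- and 1.36 ± 0.57 cycles in B6 DN1d cells (SD, n = 3 runs each; limma, adjusted p = 0.0180). Gp49a had 0.11 ± 0.11 against 1.55 ± 0.57 cycles (SD, n = 3 runs each; limma, adjusted p = 0.0138). The Csf2rb2 level call ended without any 1 of the Rag1-/- runs and the Gp49a call without Rag1-/- run 2.

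In Tcrd-/- against B6 DN1d cells, 0 of the 4 genes were called by detection in limma, and 0 had an unadjusted p under 0.05, while 55.3% of all assays were called, each of them higher in Tcrd-/-. By level, 0 of the 4 were called, against 61.7% of assays. The logit differences were -0.52 ± 0.55 for Spi1, -0.78 ± 0.53 for Csf2rb2 and -0.59 ± 0.53 for Gp49a, with limma adjusted p of 0.447, 0.235 and 0.377. These values turned on few cells. Of the 8 Tcrd-/- cells with any of the 4 genes, 6 had unusually few assays for their population, and without such cells the 3 differences became -2.43, -2.24 and -1.81 and passed (limma, adjusted p = 0.000655, 0.000558 and 0.0034). Among cells with 16 to 30 other assays they turned positive, at 1.17, 1.06 and 0.98, and did not pass (limma, adjusted p = 0.237, 0.187 and 0.243). All 3 comparisons use the same B6 DN1d runs.

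Csf1r, the macrophage growth factor receptor gene, was all but missing from the panel's cells. It was detected in 2 of 78 DN2 cells (2.56%, 0.312% to 8.96%), at levels of 6.17 and 8.32. It was detected in 0 of 86 Tcrd-/- cells, which allows up to 3.49%, and in 0 cells of the Rag1-/- and of the B6 DN1d runs, which allows up to 1.35% in each population. The DN2 detection difference of 1.59 ± 0.48 was past the threshold (limma, adjusted p = 0.00558) but rests on 2 cells, and the mean level of 0.19 in DN2 against 0 in B6 DN1d cells did not pass (limma, adjusted p = 0.307). In single cells, a gene that was not detected may have been present below what 1 cell's reaction can read.

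**Figure D2:**
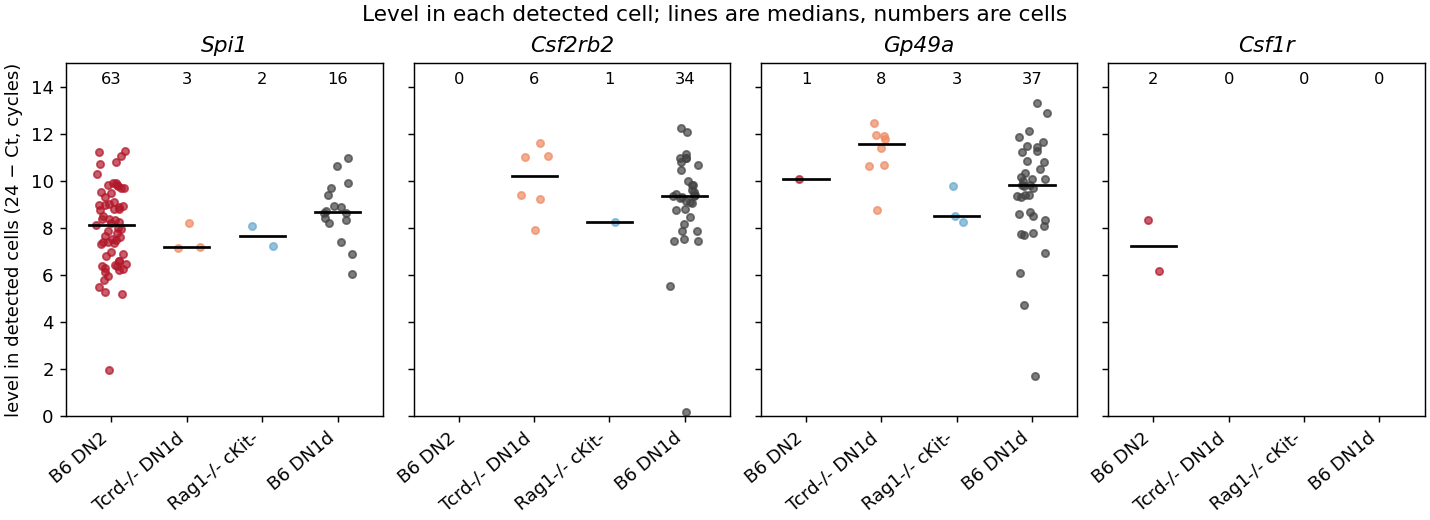
Level in each cell in which the gene was detected (24 minus Ct, in cycles, vertical axis) for the 4 genes in B6 DN2, Tcrd-/- DN1d, Rag1-/- cKit- and B6 DN1d, with all runs of a population pooled. Lines are medians and the numbers count cells; levels overlap between populations, and for Spi1 the medians are 8.10 in DN2 and 8.68 in B6 DN1d although 63 and 16 cells carry it.

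Cells that carried Spi1 differed between the populations in what they carried with it. In DN2, 60 cells had Spi1 alone, 2 had Spi1 with Csf1r and 1 had Spi1 with Gp49a. In B6 DN1d, the 16 Spi1 cells were 13 with Csf2rb2 and Gp49a, 1 with Csf2rb2 and 2 with neither. Csf2rb2 or Gp49a was thus detected in 1 of 63 Spi1 cells of DN2 (1.59%, 0.0402% to 8.53%) and in 14 of 16 Spi1 cells of B6 DN1d (87.5%, 61.7% to 98.4%), where the runs had 2 of 2, 4 of 4 and 8 of 10. The exact intervals of the 2 populations do not overlap, but they cover counting error only. With 1 DN2 run against 3, an exact permutation test cannot go below p = 0.25, so none was made.

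The other populations held few Spi1 cells. In Tcrd-/-, all 3 Spi1 cells carried Gp49a, and 2 of them Csf2rb2 as well. In Rag1-/-, 1 of the 2 Spi1 cells carried both receptor genes and the other neither. Among B6 DN1d cells without Spi1, 28 had Csf2rb2 or Gp49a (13.5%), against the 87.5% of those with Spi1. Among DN2 cells without Spi1, 0 of 15 had either (0% to 21.8%), so both genes were rare in DN2 with or without Spi1.

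Csf2rb2 and Gp49a were the most tightly paired of the 4 genes. In B6 DN1d they shared 29 cells, which is 85.3% of the 34 Csf2rb2 cells and 78.4% of the 37 Gp49a cells. Their natural log odds ratio for joint detection was 5.36, 4.55 and 4.02 in the 3 runs (mean 4.64 ± 0.67, SD). For Spi1 it averaged 3.87 ± 0.75 with Csf2rb2 and 3.22 ± 0.60 with Gp49a (SD, n = 3 runs each). These 3 pairs were thus linked positively in each run, as a description over cells that share a run, a capture and a depth. In Tcrd-/-, all 6 Csf2rb2 cells also had Gp49a, and 2 of the 8 Gp49a cells lacked Csf2rb2. Counted over B6 DN1d runs 1, 2 and 3, all of Spi1, Csf2rb2 and Gp49a stood in 2, 3 and 8 cells, and Csf2rb2 with Gp49a but no Spi1 in 5, 5 and 6 cells. Run 3 thus had more of the triple combination than the other runs, and the pair without Spi1 was even across runs.

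**Figure D3:**
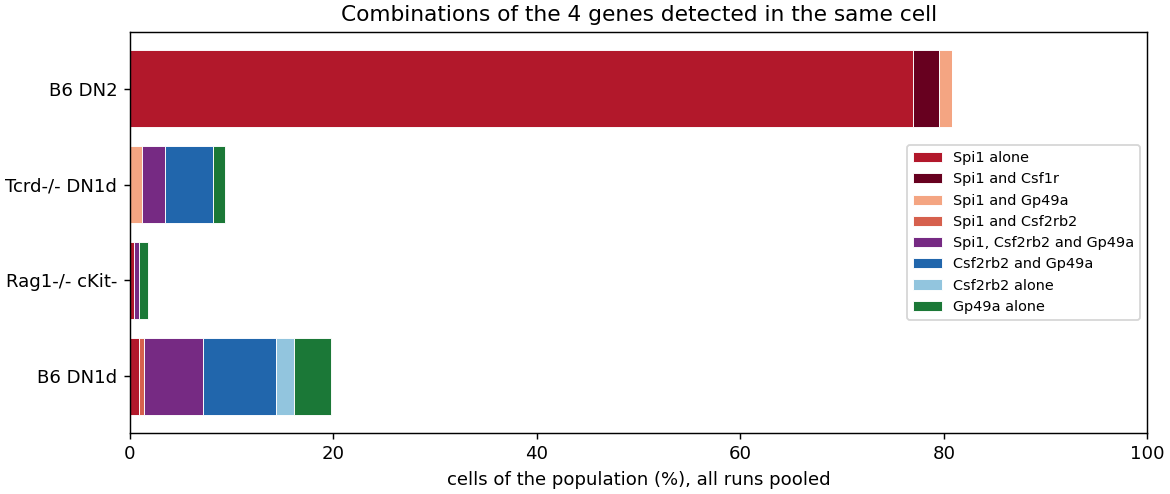
Share of cells of each population in percent (horizontal axis, runs pooled) that hold each combination of the 4 genes, with B6 DN2 on top and B6 DN1d at the bottom. DN2 is filled by Spi1 alone (60 of 78 cells), while most Tcrd-/- and B6 DN1d cells hold none of the genes, and those that do hold mainly Csf2rb2 with Gp49a (4 and 16 cells) or all 3 of Spi1, Csf2rb2 and Gp49a (2 and 13 cells).

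Of all assays detected in 5% to 95% of B6 DN1d cells and the other 3 genes, the same assays came closest to each gene's pattern over B6 DN1d cells by mean log odds ratio over 3 runs. For Spi1 they were Csf2rb2 (3.87), Gp49a (3.22), Cdh1 (2.73) and Bhlhe40 (1.38). For Csf2rb2 they were Cdh1 (4.76), Gp49a (4.64), Spi1 (3.87) and Bhlhe40 (1.83), and for Gp49a Cdh1 (5.06), Csf2rb2 (4.64), Spi1 (3.22) and Bhlhe40 (2.33). Cdh1 encodes E-cadherin, an adhesion protein of epithelial and some blood cells, and Bhlhe40 a transcriptional repressor of the basic helix-loop-helix family. Cdh1 came ahead of the other receptor gene for both Csf2rb2 and Gp49a, by less than the SD between runs.

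Cells with 2 or more of the 4 genes numbered 3 in DN2 (3.85%), 7 in Tcrd-/- (8.14%), 1 in Rag1-/- (0.448%) and 30 in B6 DN1d (13.5%; 7, 9 and 14 cells in the runs). A further 14 B6 DN1d cells held exactly 1 of the genes. What else these cells carried was tested in B6 DN1d, within each run, over the 38 other assays detected in 5% to 95% of its cells. The 30 cells had fewer assays in all: a median of 13 of the 44 other assays (range 9 to 23), against 20 (7 to 35) in the other cells. Their Gapdh level was 14.72 against 14.63. In Tcrd-/- the medians were 17 other assays in the 7 cells and 32 in the remaining 79, with Gapdh at 14.66 against 15.18. The part of this difference in the comparisons of single assays was examined only against cells with at most 20 other assays. That limit was put on the comparison cells alone, so the sets were not matched in their number of assays. A count of 0 allows a share of up to 10% in 30 cells, 42.9% in 7 cells and 18.8% in 16 cells.

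Of the 38 assays, 21 passed (55.3%), 3 of them more often detected (7.89%) and 18 less often (47.4%) in cells with 2 or more of the genes. The median logit difference over all 38 was -1.19. The 3 assays found more often were Cdh1, Bhlhe40 and Cpa3, the gene of a protease of mast cells and early progenitors. Cdh1 was detected in 71.4%, 77.8% and 92.9% of cells with 2 or more of the genes in runs 1, 2 and 3, and in 0%, 3.28% and 7.46% of the other cells of these runs. It was thus present in 25 of 30 cells and rare elsewhere, with no overlap between runs (logit difference 4.85 ± 0.40, SE; limma, adjusted p = 0.00111). Bhlhe40 was detected in 55.6% ± 12.0 against 13.8% ± 5.60 (limma, adjusted p = 0.00832), and Cpa3 in 45.8% ± 3.75 against 12.5% ± 4.40 (SD, n = 3 runs each; limma, adjusted p = 0.00875). Gpr183, a receptor for oxysterols, stood at 67.5% ± 17.9 against 32.4% ± 9.43 (SD, n = 3 runs each) and did not pass (limma, adjusted p = 0.0509).

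Genes of the T lineage were among those found less often. Of 11 listed, 8 could be tested, of which 5 were less often detected, 0 more often and 3 did not pass (median logit difference -1.83). Against cells with at most 20 other assays, a comparison chosen after the data were seen, Tcf7, Lef1 and Tcf3 E47 still passed, and Tcf12 (-1.41) and Bcl11b (-1.11) did not. Tcf7, which encodes the T lineage factor TCF-1, was detected in 0%, 22.2% and 0% of cells with 2 or more of the genes and in 69.2%, 63.9% and 73.1% of other cells, with no overlap (difference -3.17 ± 0.57, SE; limma, adjusted p = 0.00564). Lef1, a relative of TCF-1, stood at 3.70% ± 6.42 against 55.3% ± 5.09 (SD, n = 3 runs each; limma, adjusted p = 0.00426). Tcf12 and Tcf3 E47, assays of E protein genes, had 8.47% against 52.1% and 3.70% against 35.7%. Tcf3 E12, the other Tcf3 assay, was in 16 of the 30 cells. It had 46.8% against 57.9% and did not pass (limma, adjusted p = 0.205). Bcl11b, which marks T lineage commitment, was detected in 45.8% ± 25.0 against 74.8% ± 29.9 (SD, n = 3 runs each; limma, adjusted p = 0.0200), and run 3 had a far lower share than runs 1 and 2 in both kinds of cell. Notch1, the receptor that starts the T programme, had 19.3% against 36.1% and did not pass (limma, adjusted p = 0.132). Gata3, a factor of T cells and several innate cells, was in 29 of the 30 cells, and Ets1 in all 30; both were too common to test, and Rag2, at 0 of 30 cells, too rare.

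The genes of interleukin 17 producing gamma delta T cells gave 5 of 8 tested less often, 0 more often and 3 not past (median -2.09). None of the 5 passed against cells with at most 20 other assays. The logit differences there were -1.35 for Sox13, -0.78 for Etv5, -0.0169 for Il17re, -0.00198 for Blk and 0.0693 for Cd163l1. Their limma adjusted p were 0.0681, 0.325, 0.997, 0.997 and 0.983, in the same order. In the 30 cells, Blk was detected in 1 and the others in 0, so their logits were at or near the lowest value possible. The comparison cells were chosen by a count that includes these assays, so shares there may be low as well. For Il17re, Blk and Cd163l1, the values near 0 therefore do not show equal detection. Sox13, an early factor of this lineage, was detected in 0 of 30 cells, against 55.4%, 50.8% and 38.8% of the other cells of the runs (difference -2.94 ± 0.32, SE; limma, adjusted p = 0.00234). The other 4 were Etv5, an ETS factor gene, with 0% against 38.8%, Cd163l1, a scavenger receptor gene, with 0% against 29.8%, Il17re, an interleukin 17 receptor gene, with 0% against 27.7%, and Blk, a kinase gene, with 2.38% against 40.7%. Maf, a factor of the same lineage, stood at 29.1% ± 25.2 against 72.3% ± 13.8 (SD, n = 3 runs each) and did not pass (limma, adjusted p = 0.0556). Runs 2 and 3 had it in 44.4% and 42.9% of the cells and run 1 in 0%. Il7r, the interleukin 7 receptor gene, had 34.9% against 52.2% (limma, adjusted p = 0.136). Scart2, a scavenger receptor gene related to Cd163l1, was in 29 of these 30 cells, too common to test.

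Progenitor genes were split, with 1 of 4 more often (Cpa3), 2 less often and 1 not past (median -0.67). Cpa3 and Cdk6 also passed against cells with at most 20 other assays, and Myb did not (-1.28; limma, adjusted p = 0.0805). Myb, a factor of blood progenitors, had 3.70% against 53% (limma, adjusted p = 0.00423), and Cdk6, a cell cycle kinase gene, 8.47% against 42.4% (limma, adjusted p = 0.0253). Runx1, a factor of blood progenitors and T cells, had 77.2% against 64.2% (limma, adjusted p = 0.258). Of 4 innate lymphoid genes, 1 was less often detected and 3 did not pass (median -0.40). Tox, an HMG box factor gene, had 7.41% against 66.7% (limma, adjusted p = 0.00564), and Id2, an inhibitor of E proteins, 68.5% against 65.2% (limma, adjusted p = 0.845).

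The remaining assays less often detected were Smo, the Hedgehog signal transducer gene, with 0% against 33.6%, Ccr9, a thymus homing receptor gene, with 3.70% against 47.8%, the Vg2-Jg1 junction with 8.47% against 46.3%, and Gzma, a granzyme gene, with 0% against 18.4%. A further assay not named here makes up the 18. When the cells with 2 or more of the genes were set, without matching, only against cells with at most 20 other assays, 8 of the 38 assays passed. These 8 were Cdh1, Bhlhe40 and Cpa3 more often, and Tcf7, Lef1, Tox, Cdk6 and Tcf3 E47 less often. Smo (-1.26), Ccr9 (-1.36), Vg2-Jg1 (-0.51) and Gzma (0.846) were among those that did not pass. Gzma was in 0 of the 30 cells, so its positive value comes from the 0.5 added to each side. Leaving out B6 DN1d run 2 also left 8. Of the named assays these were Cdh1, Bhlhe40, Sox13, Myb, Tcf7, Ccr9 and Il17re. Cdh1, Bhlhe40 and Tcf7 passed under both.

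**Figure D4:**
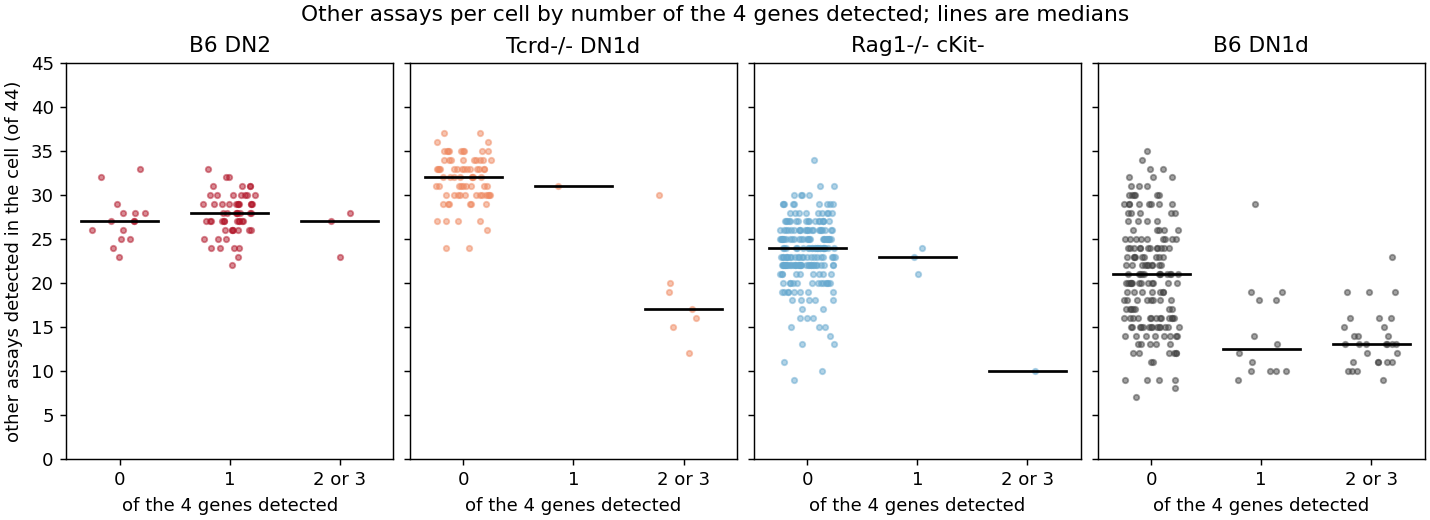
Number of assays detected in each cell apart from the 4 genes (vertical axis, of 44) by how many of the 4 genes the cell held (horizontal axis), for B6 DN2, Tcrd-/- DN1d, Rag1-/- cKit- and B6 DN1d, with medians as lines. In B6 DN1d the median was 13 in cells with 2 or more of the genes and 21 in cells with 0, in Tcrd-/- 17 and 32, and in DN2 27 in both.

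Against the name of myeloid cells, the 30 B6 DN1d cells held Csf1r in 0 cells, Spi1 in 14, and Gata3 and Scart2 in 29 each. Of the other T lineage markers set for this check, Bcl11b was in 12, Notch1 in 6, Tcf7 in 2 and Rag2 in 0 of 30 cells. Ets1 and Runx1, which many other blood cells carry too, were in 30 and 23. The mast cell and basophil protease gene Cpa3 was in 14 of 30. Of the innate lymphoid markers Id2 was in 20, Il7r in 11, Nfil3 in 2 and Zbtb16 in 0 cells. The mast cell and basophil list also holds Csf2rb2 and Gp49a, so most or all of the 14 cells with Cpa3 held that list in full. No list was held in full by all 30 cells, so the cells are called here by the genes they carry. Which antibodies made up the Lin gate is not given in the labels.

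Within the 30 cells, those with Spi1 (14) and those without (16) were compared on 10 other assays. Cdh1 was in 11 of 14 cells with Spi1 and 14 of 16 without, Bhlhe40 in 8 of 14 and 9 of 16, and Cpa3 in 6 of 14 and 8 of 16. Among the assays compared, the widest gaps were in Bcl11b, with 3 of 14 against 9 of 16, and Runx1, with 13 of 14 against 10 of 16. Syk was in 7 of 14 against 4 of 16, Il7r in 7 of 14 against 4 of 16, Id2 in 11 of 14 against 9 of 16 and Maf in 6 of 14 against 4 of 16. The cells with Spi1 numbered 2, 4 and 8 in runs 1, 2 and 3, and those without 5, 5 and 6. Bcl11b was in 71.4%, 44.4% and 21.4% of the 30 cells by run, so its gap is mixed with this uneven spread. The counts were not tested.

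The Tcrd-/- run, with 7 cells holding 2 or more of the genes, gave shares to set beside those of B6 DN1d. Cdh1 was detected in 7 of 7 and in 0% of the other 79 cells. Tox was in 0 of 7 against 100%, and Tcf7 and Myb each in 1 of 7 against 98.7%. Sox13 was in 4 of 7 (57.1%) against 100%, whereas in B6 DN1d 0 of 30 had it. Its mean level in Tcrd-/-, undetected cells at 0, was 3.27 against 12.00 cycles. Bhlhe40 was in 42.9% against 7.59% and Gpr183 in 71.4% against 34.2%. Cpa3 was in 28.6% against 75.9%, the opposite order to B6 DN1d. In a limma test of the within-run logit differences, Tcrd-/- against B6 DN1d, which was added after the data were seen and has 2 residual degrees of freedom, 0 of 38 assays passed (0%), and 11 had an unadjusted p under 0.05. The smallest adjusted p was 0.0549, for Cpa3 (-1.92 in Tcrd-/- against 1.78 in B6 DN1d) and for Runx1 (-3.60 against 0.54). For Sox13 the logit difference was -4.82 in Tcrd-/- against -2.94 in B6 DN1d (limma, adjusted p = 0.106). Both values depend on the 0.5 added, at 0 of 30 cells in B6 DN1d and at 100% of the other cells in Tcrd-/-. Their order therefore does not show in which population Sox13 was reduced more. Without B6 DN1d run 3, 10 assays passed, without run 1, 3, and without run 2, 0. With the Tcrd-/- run added to the B6 DN1d runs, a choice made after the data were seen, Cpa3 did not pass (limma, adjusted p = 0.302).

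**Figure D5:**
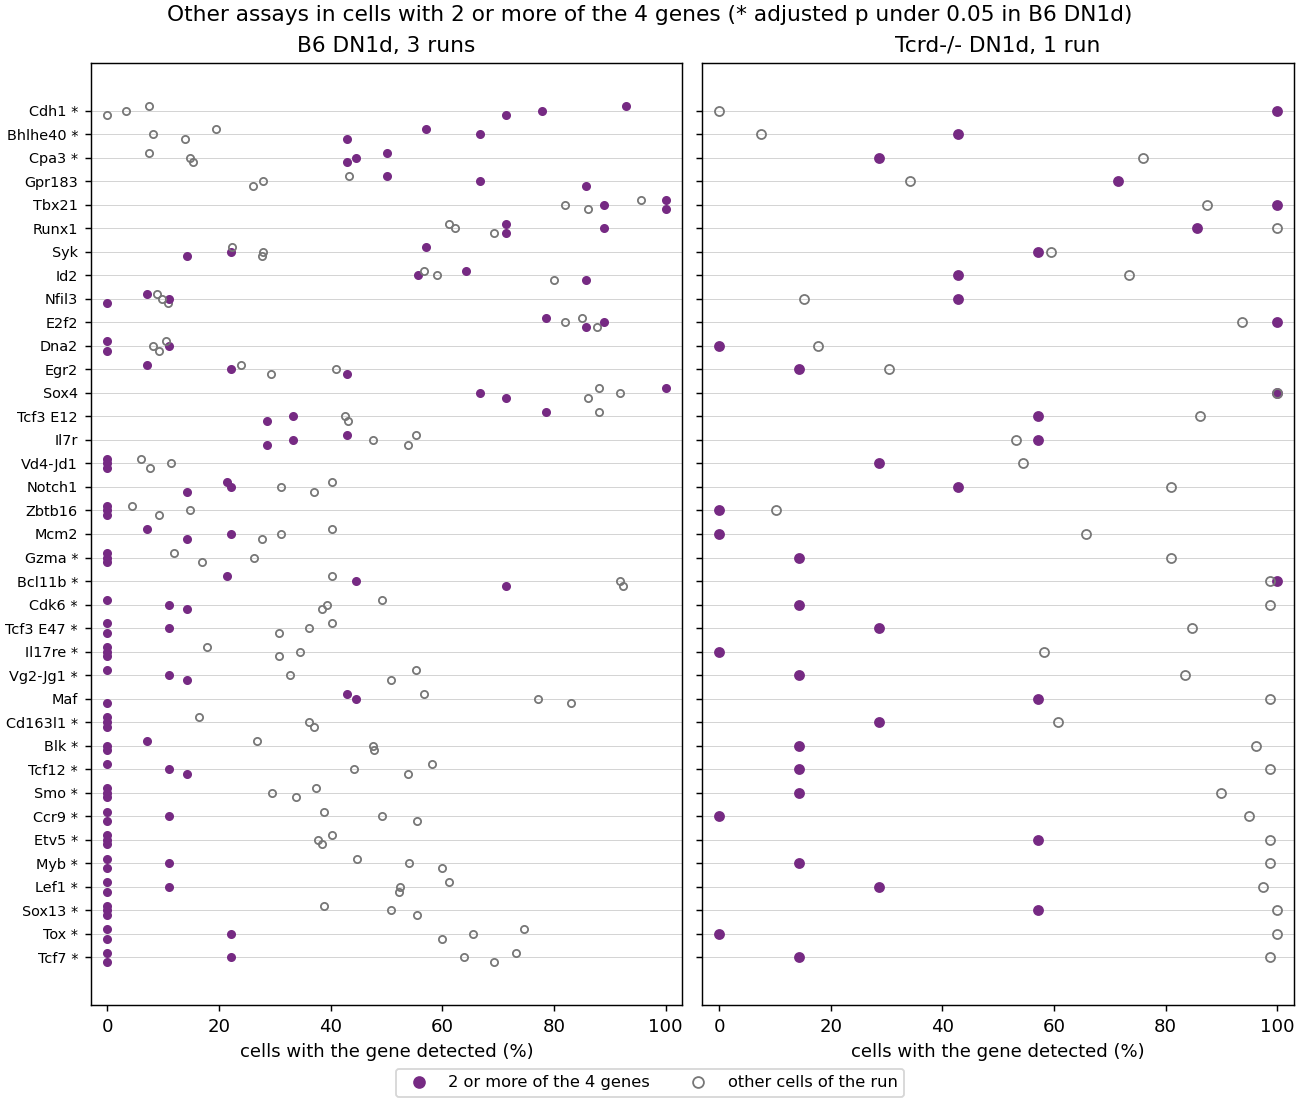
Share of cells in percent (horizontal axis) with each other assay detected, in cells with 2 or more of the 4 genes (filled) and in the other cells of the run (open), for the 3 B6 DN1d runs on the left and the Tcrd-/- DN1d run on the right. Cdh1 lies furthest apart on the higher side, at 71.4% to 92.9% against 0% to 7.46% in B6 DN1d and at 100% against 0% in Tcrd-/-, while Sox13, at 0% in B6 DN1d, stands at 57.1% in Tcrd-/-.

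The link with Cdh1 was seen where Csf2rb2 and Gp49a were common. In cells with none of the 4 genes, Cdh1 was detected in 5 of 15 DN2 cells, 0 of 78 Tcrd-/- cells (up to 3.85%), 79 Rag1-/- cells (36.1%) and 2 B6 DN1d cells (1.12%). Rag1-/- cells thus held Cdh1 in 81 cells with hardly any of the 4 genes, while in B6 DN1d 30 of 32 Cdh1 cells held at least 1 of them.

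Spi1 cells of DN2 and of B6 DN1d also differed in the rest of the panel. Myb was detected in 63 of 63 Spi1 cells of DN2 and 1 of 16 of B6 DN1d, and Tcf7 likewise in 63 of 63 and 1 of 16. Cdk6 and Smo were in 63 of 63 against 0 of 16, and Sox13 in 57 of 63 (90.5%) against 0 of 16. Notch1 was in 63 of 63 against 5 of 16 (31.3%), and Cpa3 in 63 of 63 against 6 of 16 (37.5%). Cdh1 went the other way, with 15 of 63 (23.8%) against 11 of 16 (68.8%), and Gata3 was in all cells of both. The DN2 cells had a median of 28 other assays, the B6 DN1d cells 13.5. These values describe 1 DN2 run, and their difference was not tested.

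Within DN2, cells with Spi1 (63) and without (15) had medians of 28 and 27 other assays. Myb, Tcf7, Notch1, Cpa3, Cdk6 and Runx1 were in all 63 and all 15. Lef1 was in 4.76% (0.993% to 13.3%) of cells with Spi1 against 20.0% (4.33% to 48.1%), and Blk in 15.9% (7.88% to 27.3%) against 0 of 15, which allows up to 21.8% by the exact interval. Gzma was in 30.2% against 46.7%, and Rag2, the recombinase partner gene, in 58.7% against 53.3%. Bcl11b was in 87.3% against 86.7%, at a mean level over all cells of 5.62 against 7.16 cycles. The exact intervals overlapped for each of these genes, which does not show that the cells were the same.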

How the data were processed

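Cells were isolated singly on the Fluidigm C1, and their complementary DNA was, per the labels' protocols, amplified for 18 cycles with pooled primers before 30 cycles of quantitative PCR with EvaGreen dye. The deposited table holds 1 unnormalised Ct per assay and cell. Other values, made from it here, are the level (24 minus Ct) and detection (Ct below 24). The sources used here do not give how Ct was called or who set the ceiling. Cells with the same values throughout numbered 0. Doublets were not assessed, since capture-site images were not used here.

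Each assay had 1 value per run: the mean level, or the logit of the share detected with 0.5 added to each side. All 8 runs entered 1 limma 3.58.1 fit (R 4.3.3) with 4 residual degrees of freedom, adjusted by Benjamini-Hochberg over 47 assays at a threshold of 0.05. Borrowing of spread across assays brought the total degrees of freedom to 20.0 for detection and 4.97 for level. The populations with 1 run were assumed to vary like the others, so no run-to-run spread of their own entered a p-value. For cells with 2 or more of the 4 genes, the logit difference to the other cells of each of 3 B6 DN1d runs was tested in limma over 38 assays, in 5% to 95% of cells. Intervals are exact (Clopper-Pearson) at 95%. An interval, and the limit for a count of 0 (3 cells of the total), covers counting error only. Python 3.11.15, pandas 2.3.3, numpy 2.4.6, scipy 1.17.1 and matplotlib 3.10.9 made tables and figures.

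The 4 genes, the gene lists and the tests were chosen with earlier results of these data known. The text names the 4 genes, the 4 assays most like each, the 20 largest of the profile assays past the threshold, Sox13, Blk, Myb, Cpa3, Id2, Bcl11b, Tcf7, Gata3, Notch1, Il7r and Gapdh, and up to 4 examples per list. Gpr183, Maf, Runx1, Gzma, Tcf3 E12 and the markers and shares in single-run populations beyond these were named after their values were seen. A further assay is not reported here, though counts include it. Alternatives were a ceiling of 20, 1 added to each side, an arcsine scale, subtraction of Gapdh, only the runs compared, cells with 16 to 30 other assays, removal of cells over 3 scaled median deviations below their population's median number of assays, other definitions of the cell classes, and leaving out each run.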

Additional observations from a re-analysis of the deposited data

Results flagged for a closer look

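In cells with 2 or more of the 4 genes, the Tcrd-/- run moved against all 3 B6 DN1d runs for 4 assays, as the share in these cells minus the share in the other cells of the run. Bcl11b differed by 1.27 percentage points in Tcrd-/- and by -20.9, -47.4 and -18.9 in B6 DN1d runs 1, 2 and 3. Its Tcrd-/- shares were near the ceiling, at 100% against 98.7%. Its mean level over all cells was lower in cells with 2 or more of the genes in both populations. It was 4.49 against 9.61 cycles in Tcrd-/- and 1.27 against 4.09 in B6 DN1d. The mean levels of Cpa3, Il7r and Runx1 differed in opposite directions between the populations, as their shares did. Cpa3 differed by -47.4 points in Tcrd-/- and by 27.5, 29.7 and 42.5 in the B6 DN1d runs. Il7r differed by 3.98 points in Tcrd-/- and by -25.3, -14.2 and -12.4 in the B6 DN1d runs. Runx1 differed by -14.3 points in Tcrd-/- and by 2.20, 26.6 and 10.2 in the B6 DN1d runs. The Tcrd-/- values rest on 7 cells of 1 run. On the logit scale, where 0.5 is added to each side, Bcl11b was negative in Tcrd-/- too, at -1.25. The test of the difference between the populations gave adjusted p of 0.784 for Bcl11b, 0.0549 for Cpa3, 0.438 for Il7r and 0.0549 for Runx1 (limma on 4 runs), so 0 of the 4 passed.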

How the results depend on the processing

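No paired analysis was possible because the labels give runs no numbers that match across populations, and DN2 and Tcrd-/- have 1 run each, which could not be left out. Over the alternatives, 190 values of the 4 genes kept their direction and side of the threshold, 23 lost their call, 3 gained one and 4 reversed. Of the profile values, 27 lost their call, 6 reversed and the rest kept both. Of the counts of assays past the threshold, 71 stayed within 1.5 times and the other 10 did not, and all 15 values of the log odds ratios stayed within 1 SD between runs. The cause of each change below was not tested, apart from changes in the number of cells or runs that a setting itself makes.

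Among cells with 16 to 30 other assays, the DN2 detection difference of Gp49a was -1.31 and that of Csf2rb2 -2.10, the count of assays called in Tcrd-/- was 8 (26 otherwise), and the Tcrd-/- differences of Spi1, Csf2rb2 and Gp49a reversed to 1.17, 1.06 and 0.98. With cells of few assays left out these 3 became -2.43, -2.24 and -1.81, past the threshold; that setting removed 6 of the 8 Tcrd-/- cells with any of the genes. The adjusted p of these 3 ran over all alternatives between 0.000655 and 0.817, 0.000558 and 0.382, and 0.0034 and 0.597 (limma). The Rag1-/- detection difference of Spi1 was -0.184 on the arcsine scale, and lost its call.

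The DN2 level difference of Csf2rb2 lost its call with only the runs compared (-1.36), with Gapdh subtracted (-1.88), with the ceiling at 20 (-0.78) and with few-assay cells left out (-1.36). That of Gp49a did so at -1.42, -1.94, -0.83 and -1.42. Leaving out each run gave -1.58 to -1.04 for Csf2rb2 and -1.65 to -1.10 for Gp49a. In Rag1-/- it gave -1.54 to -1.01 and -1.68 to -1.13. Csf1r reversed to -0.33 with Gapdh subtracted. Without each run the DN2 level count lay between 17 (without Rag1-/- run 1 or 3) and 27. In cells with the gene detected, 4 of 36 assays were called in DN2, 1 in Tcrd-/- and 4 in Rag1-/-. That fit needed a run with at least 3 detected cells in every population. The Rag1-/- runs held too few for each of the 4 genes, so these were not fitted in any comparison.

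The count of assays whose profile differed between Tcrd-/- and B6 DN1d was 0, and 0 to 10 without each B6 DN1d run (3 without run 1, 10 without run 3). The profile count of 21 was 8 against cells with at most 20 other assays and 8 to 24 without each run. Against those cells Cd163l1 reversed to 0.0693, Gzma to 0.846 and Id2 to -0.0862. Cd163l1 and Gzma were in 0 of 30 cells, so a positive value does not show more frequent detection. Id2 was also -0.00017 with 1 added to each side, -0.255 with the Tcrd-/- run added, and between -0.0249 and 0.194 without each B6 DN1d run. Cpa3 fell short with the Tcrd-/- run added, at 0.86 (limma, adjusted p = 0.302). Without B6 DN1d run 3, Cdk6 was -1.16 and Vg2-Jg1 -1.26, both still past the threshold.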
